A study of Mus musculus with 11 samples.

Results

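Mouse bone marrow derived macrophages in the M1 state were compared with the same kind of cells in the M0 state across the whole transcriptome, both after 16 hours with the control gapmer labelled NS. Gapmers are antisense oligonucleotides that recruit RNase H to cut a matching RNA, and both states carried the NS oligonucleotide, so neither is an untreated macrophage. The cells came from C57BL/6 bone marrow, per the labels. The comparison used 3 M1 NS and 3 M0 NS libraries, numbered 1, 2 and 4 in each state and all genes. Of 42375 named genes in the count table, 15024 had enough reads to be tested. The other 5 libraries of the series, 3 of M0 and 2 of M1 cells treated with the gapmer to MERRICAL, a long noncoding RNA, entered the filter on low counts, the scaling and the estimate of the spread between libraries. With the 6 NS libraries alone 13545 genes were tested, of which 3602 were called higher and 3936 lower. The sources used here do not give the stimulus used for M1, the age and sex of the mice, any pooling of animals or the meaning of the replicate numbers. No source says that replicates were separate cultures or animals, so each p-value reflects the spread among these libraries alone, which may be technical.

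M0 is the usual name for macrophages grown out of marrow and not further stimulated, and M1 for cells driven to the classically activated state, commonly with interferon gamma, a bacterial ligand or both. Classical activation is best known for its cytokines, chemokines, nitric oxide synthesis and antigen presentation. It also changes what a cell imports and exports, which signals it can receive, how it burns fuel and which regulators it makes, and the results below are ordered by those roles: transporters, transcription factors, surface receptors, enzymes and long noncoding RNAs. Genes named in most accounts of M1 cells were counted in these groups but are not described.

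Total counts of the 6 libraries ran from 30040632 to 42724382. Libraries of a state resembled each other more than those of the other state, with correlations of log2 CPM across genes of 0.987 to 0.992 within M0 NS, 0.973 to 0.987 within M1 NS and 0.879 to 0.909 between them (genes are not independent replicates). CPM, counts relative to a library total that was adjusted by a scaling factor, is not divided by gene length, and values are given in the order of replicates 1, 2 and 4. M1 NS replicate 4 was the lowest of the 3 M1 libraries for 51.8% of the genes called higher, and M0 NS replicate 4 the lowest of the M0 libraries for 51.7% of them. Of 11 macrophage markers found under their symbols, 5 were higher and 5 lower in M1 NS. Their summed level was 26659 to 28237 CPM in M0 NS and 14091 to 16326 CPM in M1 NS, and the lysozyme gene Lyz2 (17459.6 ± 1224 to 5639 ± 687 CPM, SD, n = 3 each), Csf1r (4009.6 ± 147 to 707 ± 269 CPM) and Emr1 (2118 ± 233 to 4296 ± 282 CPM), which encodes F4/80, were read in every library of both states. All 15 markers of neutrophils and granulocyte precursors were lower in M1 NS, with a summed level of 1441 to 2496 CPM in M0 NS and 131 to 212 CPM in M1 NS. They include Chil3, and also Mmp9, which was counted among the osteoclast markers too, and their sum was not split by gene. In bulk RNA, fewer cells of a type and less RNA per cell cannot be told apart. Markers of other cell types summed to at most 341 CPM in every library. T cell markers went from 104 to 155 CPM to 5.19 to 7.13 CPM. Most of the M0 NS sum was the co-stimulatory receptor gene Cd28 (mean 116 and 1.81 CPM). Of 4 T cell markers tested, 2 were higher and 2 lower. Megakaryocyte and platelet markers went from 235 to 326 CPM to 25.5 to 67.3 CPM, with 4 of 7 lower and 0 higher. Osteoclast markers went from 224 to 324 CPM to 33.7 to 46.6 CPM, with 1 higher and 3 lower of 6 tested. B cell markers went from 43.6 to 58.2 CPM to 2.06 to 5.52 CPM, with 0 higher and 2 lower of 6 tested. Dendritic cell markers summed to 13.7 to 14.2 CPM in M0 NS and 107 to 341 CPM in M1 NS. Most of that M1 NS sum was Ccr7, and of the 8 markers 4 were higher and 3 lower. Endothelial markers went from 14.9 to 19.0 CPM to 64.4 to 167 CPM, with Kdr as the largest part in M1 NS on average. Of 6 endothelial markers tested, 2 were higher and 2 lower, with a median log2 fold change of -0.97. NK cell markers went from 2.09 to 3.98 CPM to 21.0 to 33.8 CPM, with Gzma at 0 in all 6 libraries. Only 2 of them were tested, of which 1 was higher and 1 lower. Mast cell and basophil markers stayed between 2.98 and 5.98 CPM, with Mcpt4 and Tpsb2 at 0. Fibroblast and stromal markers summed to at most 28.4 CPM and erythroid markers to at most 25.6 CPM. The part of such cells in the results below was not tested.

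The response was wide. At a Benjamini-Hochberg adjusted p under 0.05 in edgeR's quasi-likelihood test, 8338 of 15024 genes (55.5%) were called, 4044 of them higher in M1 NS (26.9%) and 4294 lower (28.6%). The CPM ranges of the 2 states did not overlap for 9223 genes (61.4%). Estimates for 2602 genes (17.3%) were past 4-fold, called or not, and of these 1047 were called higher and 1456 lower. Log2 fold changes are always M1 NS against M0 NS, and their median over all genes was -0.04. The split between higher and lower depended on the scaling. The main scaling by trimmed means (TMM) gave M0 NS libraries factors of 1.10 to 1.16 and M1 NS libraries factors of 0.84 to 0.90. With libraries scaled by their total count alone, 2348 genes were called higher and 6447 lower, and the median moved to -0.42. The 20 genes with most reads took 17.3% to 18.0% of the counts in M0 NS and 13.6% to 14.0% in M1 NS. "Rose" and "fell" below mean called higher or lower in M1 NS. The filter on low counts keeps a gene read in 1 state only, and such a gene had to differ, so counts over the tested members describe them and are set beside these backgrounds.

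Of 460 tested genes of transporters and channels (777 in the table), 115 rose (25.0%) and 170 fell (37.0%). Transcription factors had 415 tested genes of 645, of which 124 rose (29.9%) and 127 fell (30.6%). Among 531 of 817 surface receptor genes 139 rose (26.2%) and 210 fell (39.5%), and among 1994 of 2741 enzyme genes 577 rose (28.9%) and 704 fell (35.3%). Long noncoding RNAs were the largest group in the table with 5199, but only 1018 were tested, of which 193 rose (19.0%) and 203 fell (19.9%). The share past 4-fold, of genes called or not, was 39.0% for surface receptors, 23.2% for long noncoding RNAs and 22.8% for transporters. It was 19.2% for enzymes and 19.0% for transcription factors, beside 17.3% of all genes. With total-count scaling 69 transporters rose and 221 fell, 90 transcription factors rose and 190 fell, 366 enzymes rose and 977 fell, and 130 long noncoding RNAs rose and 305 fell. The scaling changed the balance of many lists as well, and where it moved the share of rises among the calls by more than 10 percentage points, the counts with total-count scaling are given too. Median log2 fold changes were -0.36 for receptors, -0.25 for transporters, -0.12 for long noncoding RNAs, -0.10 for enzymes and -0.09 for transcription factors.

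**Figure D1:**
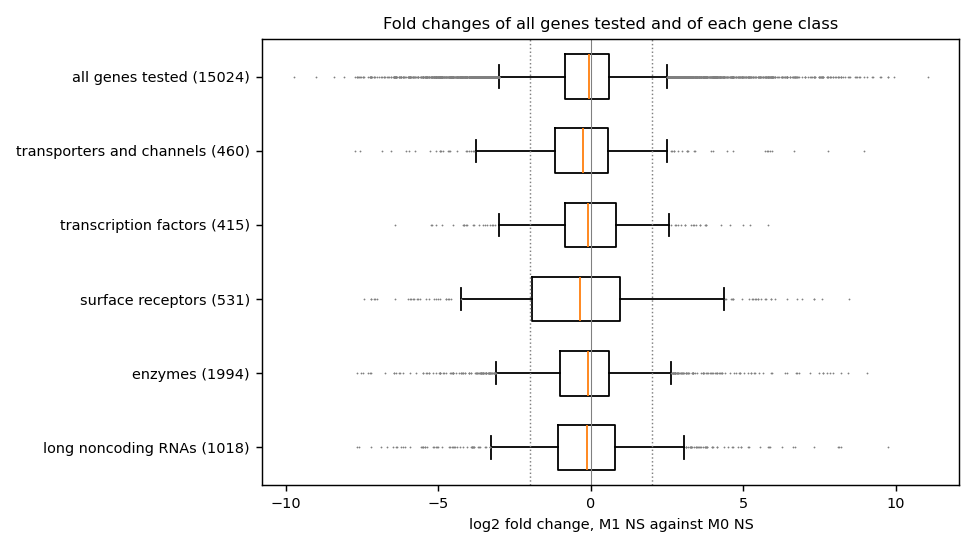
Log2 fold changes of M1 NS against M0 NS (horizontal axis) for all 15024 genes tested and for the 5 gene classes. The number of tested genes is in parentheses. Boxes span the quartiles with the median as a line. Whiskers leave out the outer 5% of genes at each end, which are drawn as points, and dotted lines mark 4-fold changes. Surface receptors have the widest box, with 39.0% of their genes past 4-fold against 17.3% of all genes.

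**Figure D2:**
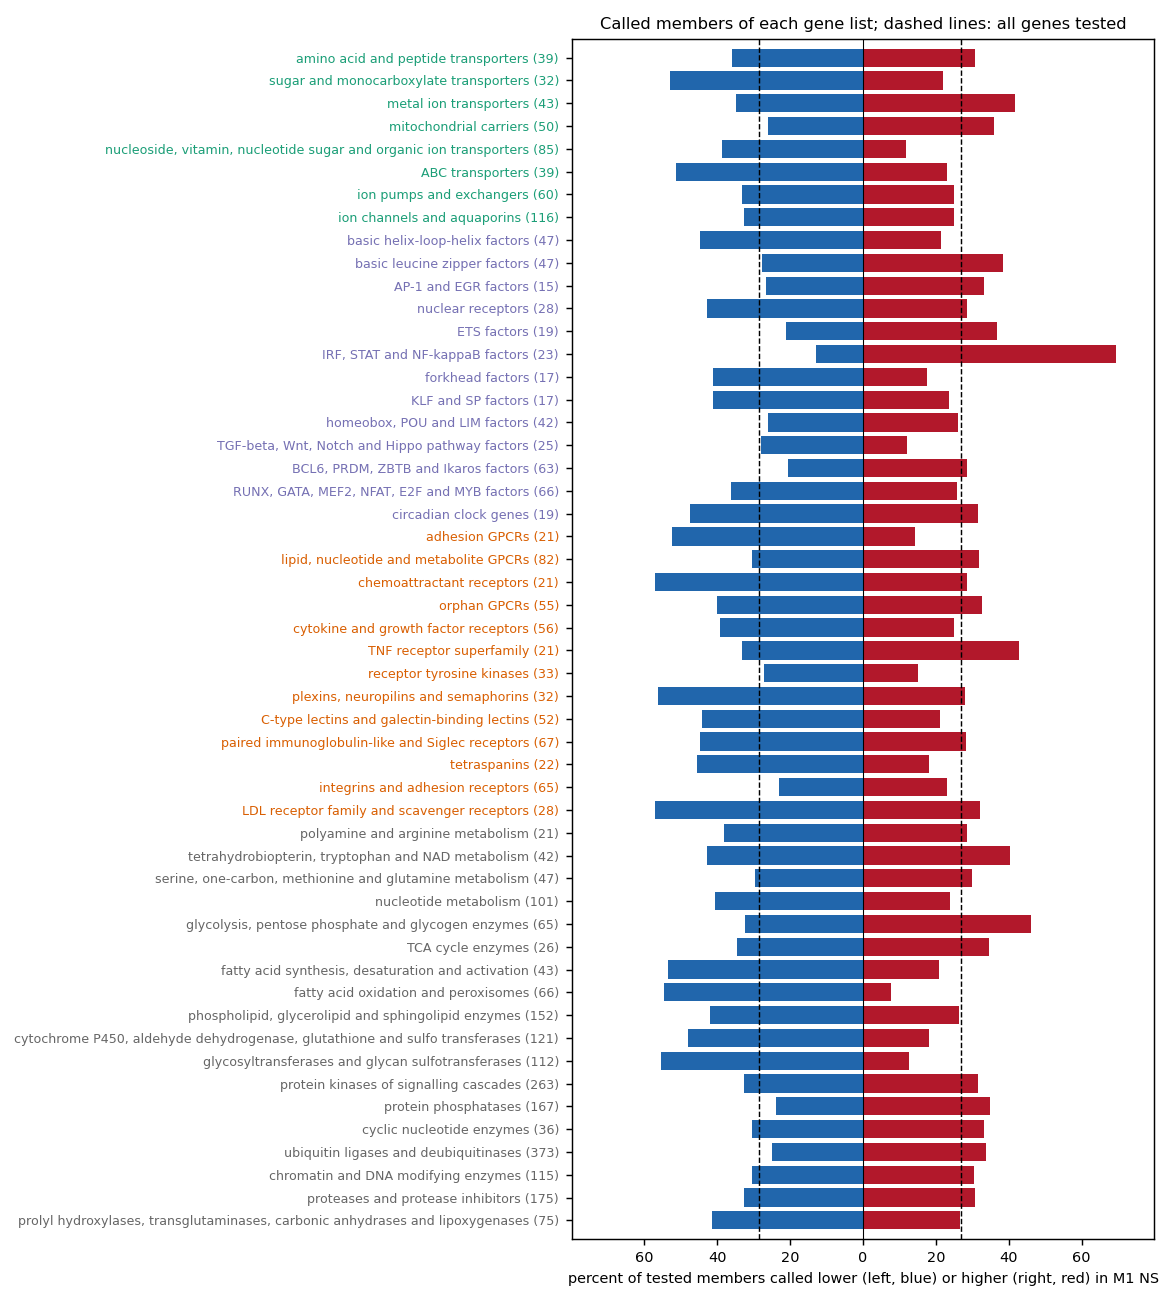
Percent of the tested genes of each list that were called lower (bars to the left) or higher (bars to the right) in M1 NS, with the number tested in parentheses and label colours by class; dashed lines mark the 28.6% and 26.9% of all genes tested. The bars of IRF, STAT and NF-kappaB factors reach farthest to the right (69.6% higher), and those of fatty acid oxidation (7.58% higher, 54.5% lower) and glycosyltransferases (12.5% higher, 55.4% lower) lean to the left.

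**Figure D3:**
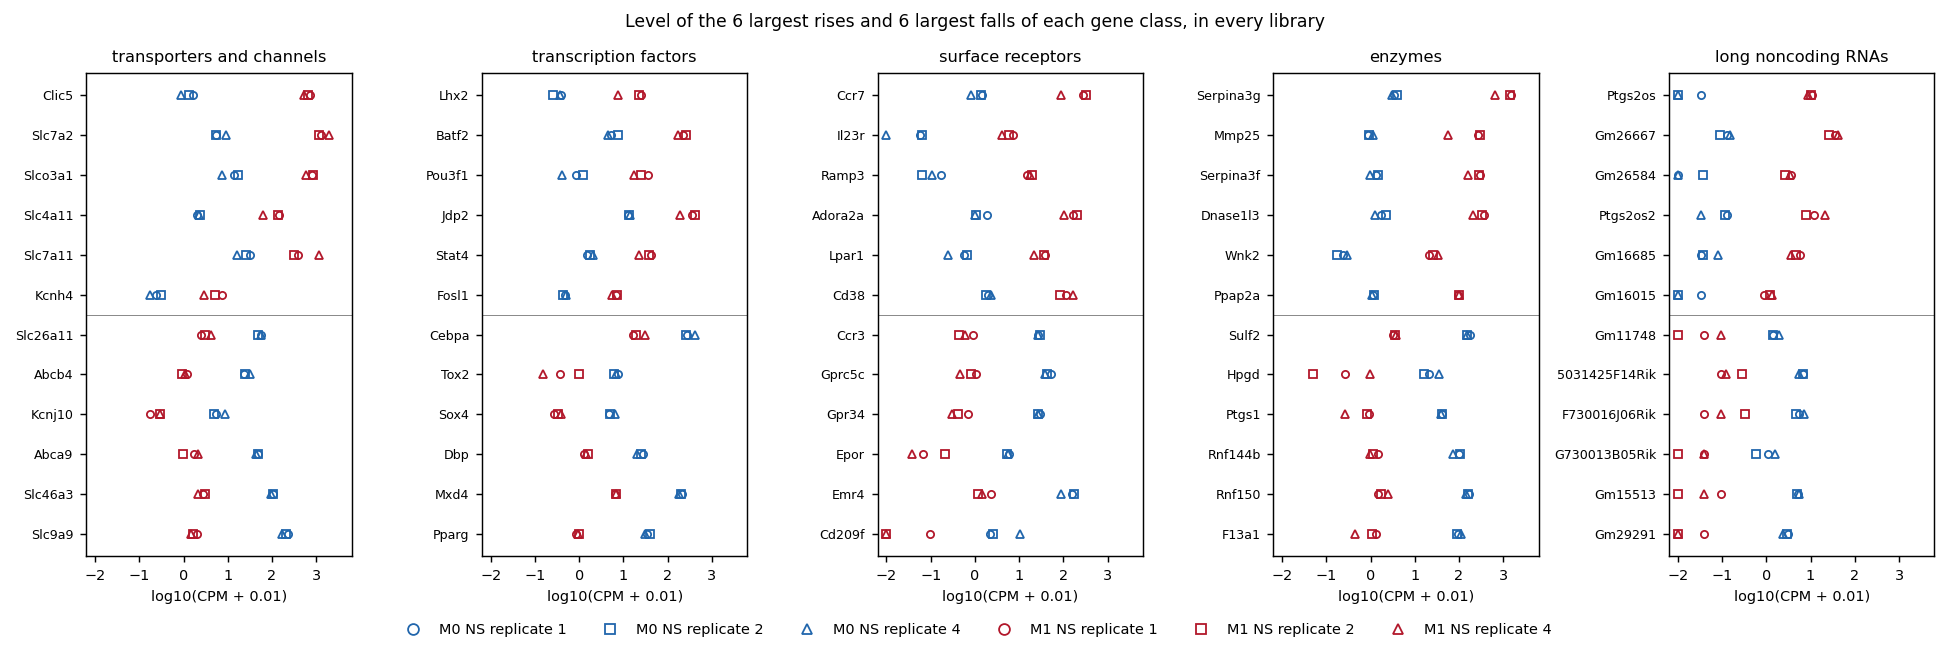
Level of the 6 largest rises (above the line in each panel) and 6 largest falls (below it) of each gene class in every library, as log10(CPM + 0.01) on the horizontal axis, where a gene with no reads lies at -2; colours mark the state and symbols the replicate. Genes were drawn only if their M1 NS and M0 NS values did not overlap. M1 NS replicate 4 stands apart from the other M1 libraries for Ccr7, Mmp25 and Slc7a11.

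Among transporters and channels, the largest rise was that of Clic5, a member of the family of intracellular chloride channels. The second, Slc7a2, and the fifth, Slc7a11, carry amino acids. Clic5 was at 1.58, 1.34 and 0.880 CPM in M0 NS and 728, 662 and 521 CPM in M1 NS (log2 fold change 8.97, SE 0.27). Slc7a2 encodes CAT2, which takes up arginine and other cationic amino acids, and was at 5.45, 5.29 and 9.33 CPM in M0 NS and 1311, 1137 and 1975 CPM in M1 NS (log2 fold change 7.78, SE 0.33). Slc7a11, the cystine importer of system xc-, was at 31.6, 25.6 and 15.7 CPM in M0 NS and 384, 313 and 1167 CPM in M1 NS (log2 fold change 4.68, SE 0.51). Its M1 NS replicate 4 lay far above the other two M1 libraries, and without that library the log2 fold change was 3.85. The organic anion transporter gene Slco3a1 was at 13.7, 16.9 and 7.42 CPM in M0 NS and 793, 842 and 595 CPM in M1 NS (log2 fold change 5.87, SE 0.38). Slc4a11, of the bicarbonate transporter family, was at 1.96, 2.32 and 2.19 CPM in M0 NS and 142, 136 and 63.0 CPM in M1 NS (log2 fold change 5.72, SE 0.53), and Kcnh4, a voltage-gated potassium channel gene, at 0.233, 0.294 and 0.167 CPM in M0 NS and 7.37, 5.19 and 2.90 CPM in M1 NS (log2 fold change 4.47, SE 0.67). In each of these 6 genes the lowest M1 NS library lay above the highest M0 NS library, which the rule for naming genes required.

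The 6 largest falls among transporters were of genes of different kinds: exchangers and carriers, ABC transporters and a potassium channel. Slc9a9, the sodium and proton exchanger of recycling endosomes, was at 226, 204 and 169.8 CPM in M0 NS and 2.02, 1.66 and 1.49 CPM in M1 NS (log2 fold change -6.85, SE 0.19). Slc46a3, a lysosomal membrane transporter, was at 105, 105 and 92.5 CPM in M0 NS and 2.72, 3.01 and 2.12 CPM in M1 NS (log2 fold change -5.27, SE 0.16). Both went from over 90 CPM in every M0 NS library to under 4 CPM in every M1 NS library. Abca9, of the A subfamily of ABC transporters, was at 49.2, 48.1 and 44.2 CPM in M0 NS and 1.71, 0.950 and 2.15 CPM in M1 NS (log2 fold change -4.85, SE 0.29), and Abcb4, which moves phosphatidylcholine across the membrane, at 23.0, 23.9 and 31.3 CPM in M0 NS and 1.18, 0.911 and 1.06 CPM in M1 NS (log2 fold change -4.62, SE 0.22). The inward rectifier potassium channel gene Kcnj10 was at 5.38, 4.78 and 8.64 CPM in M0 NS and 0.168, 0.277 and 0.287 CPM in M1 NS (log2 fold change -4.68, SE 0.64). Slc26a11, an anion transporter gene, was at 55.0, 49.2 and 55.3 CPM in M0 NS and 2.52, 2.97 and 4.16 CPM in M1 NS (log2 fold change -4.04, SE 0.20). Adjusted p-values of these 12 transporter genes ran from 3.87e-10 to 1.24e-04 (edgeR).

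The promoters of the transporter genes with the largest rise and the largest fall are shown as the 250 bases before the RefSeq start (GRCm38.p6), read 5' to 3' on the gene's strand. Capitals mark matches on either strand to 1 of 5 short motifs that were searched: an NF-kappaB motif (GGG, any 5 bases, then CC), the interferon-stimulated response element (GAAA, any 2 bases, then GAAA), the AP-1 motif TGANTCA, the CREB and ATF motif TGACGTCA and the MiT factor motif TCACGTGA. Matches to different motifs may overlap. Of all 32851 promoters in the RefSeq table, 45.8%, 2.98%, 6.75%, 1.55% and 0.785% hold the respective motif in the same window. Of the 10817 tested genes with a promoter there, 65.3% hold the NF-kappaB motif in at least 1 promoter. A match describes the letters only.
Clic5, chr17:44188322-44188571, plus strand: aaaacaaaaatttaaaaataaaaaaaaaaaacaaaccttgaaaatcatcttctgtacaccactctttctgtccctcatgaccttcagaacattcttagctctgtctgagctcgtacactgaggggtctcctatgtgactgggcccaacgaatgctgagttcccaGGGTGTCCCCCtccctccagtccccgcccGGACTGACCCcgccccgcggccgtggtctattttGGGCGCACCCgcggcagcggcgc
Slc9a9, chr9:94669642-94669891, plus strand: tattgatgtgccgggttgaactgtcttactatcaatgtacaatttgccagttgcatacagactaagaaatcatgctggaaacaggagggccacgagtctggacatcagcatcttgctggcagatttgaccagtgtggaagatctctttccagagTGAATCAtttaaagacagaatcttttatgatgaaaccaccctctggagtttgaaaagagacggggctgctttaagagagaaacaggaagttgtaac
The Clic5 window holds 4 matches to the first motif, of which 2 overlap in 1 run of capitals, and the Slc9a9 window holds 1 AP-1 match, spelled TGAATCA.

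By substrate, sugar and monocarboxylate transporters were lower more often than higher: 7 rose and 17 fell of 32 tested (median -0.78, or 4 and 19 with total-count scaling). The glucose transporter genes Slc2a6 and Slc2a1 rose, at log2 fold changes of 4.02 and 3.18, whereas Slc37a2, an exchanger of sugar phosphates, and Slc16a9 of the monocarboxylate family fell (-3.42 and -2.79). Of ABC transporters 9 rose and 20 fell of 39 tested (median -0.75, or 5 and 26 with total-count scaling), and the largest rises there were the peptide pump genes Tap1 (3.15) and Tap2 (2.74). Nucleoside, vitamin, nucleotide sugar and organic ion transporters had few rises, as 10 rose and 33 fell of 85 tested (median -0.30, or 6 and 48 with total-count scaling). There the proton-coupled folate transporter gene Slc46a1 was at -3.22, and Mfsd7a rose by 2.19. Of amino acid and peptide transporters 12 rose and 14 fell of 39 tested (median -0.26, or 7 and 19 with total-count scaling). Ctns, which exports cystine from lysosomes, and Slc43a2, which carries large neutral amino acids, fell at -2.33 and -2.27.

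Metal ion transporters moved in both directions, as 18 rose and 15 fell of 43 tested (median 0.13). With total-count scaling 8 rose and 17 fell, and with upper-quartile scaling 16 rose and 17 fell, so no direction can be given to the list. The copper transporter genes Slc31a2 and Slc31a1 rose (2.44 and 1.89). Steap3, an iron reductase of endosomes, fell at -3.91, as did the magnesium transporter gene Nipal3 at -3.43. Among mitochondrial carriers 18 rose and 13 fell of 50 tested (median 0.17), turning to 11 against 19 with total-count scaling. Their largest rises were the glutamate carrier gene Slc25a22 (2.86) and the aspartate and glutamate carrier gene Slc25a12 (2.08), and Slc25a23, which carries ATP and magnesium against phosphate, and the ornithine carrier gene Slc25a15 fell (-3.65 and -1.34). Of ion pumps and exchangers 15 rose and 20 fell of 60 tested (median -0.18, or 10 and 28 with total-count scaling). Of ion channels and aquaporins 29 rose and 38 fell of 116 tested (median -0.27, or 20 and 46 with total-count scaling). Among these 2 lists the phospholipid flippase gene Atp10a rose (2.67) and Mcoln3, an endosomal calcium channel gene, fell (-3.66).

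Among transcription factors, 3 of the 6 largest rises were basic leucine zipper genes. Batf2 was at 5.31, 7.67 and 4.40 CPM in M0 NS and 225, 258 and 168 CPM in M1 NS (log2 fold change 5.23, SE 0.26), and Jdp2, which pairs with Jun proteins, at 12.9, 13.4 and 14.1 CPM in M0 NS and 349, 406 and 194 CPM in M1 NS (log2 fold change 4.55, SE 0.25). Fosl1, which encodes the AP-1 subunit Fra-1, was at 0.466, 0.427 and 0.500 CPM in M0 NS and 6.81, 7.17 and 5.50 CPM in M1 NS (log2 fold change 3.79, SE 0.24). Stat4 transmits signals of interleukin 12 and interleukin 23. It was at 1.47, 1.74 and 2.05 CPM in M0 NS and 42.4, 37.8 and 22.6 CPM in M1 NS (log2 fold change 4.29, SE 0.37). Lhx2, of the LIM homeobox family, was at 0.372, 0.240 and 0.357 CPM in M0 NS and 25.2, 23.0 and 7.57 CPM in M1 NS (log2 fold change 5.82, SE 0.55), and the POU domain gene Pou3f1 at 0.815, 1.23 and 0.405 CPM in M0 NS and 34.9, 25.2 and 16.9 CPM in M1 NS (log2 fold change 4.98, SE 0.47). M1 NS replicate 4 was the lowest M1 library for all 6. For each it still lay above every M0 NS library, which the rule for naming genes required.

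Stat4 has 2 RefSeq starts in the table. The window before the first holds none of the motifs. The window before the second, inside the gene, holds 1 match to the interferon-stimulated response element and 1 to the NF-kappaB motif. Stat4, neither the largest rise nor the largest fall of its class, was not picked by the rule used for transporters. Of the factors given with every library, Stat4 alone had a match to the interferon-stimulated response element. The windows of Lhx2 and Pparg held NF-kappaB matches only.
Stat4, second start, chr1:52007990-52008239, plus strand: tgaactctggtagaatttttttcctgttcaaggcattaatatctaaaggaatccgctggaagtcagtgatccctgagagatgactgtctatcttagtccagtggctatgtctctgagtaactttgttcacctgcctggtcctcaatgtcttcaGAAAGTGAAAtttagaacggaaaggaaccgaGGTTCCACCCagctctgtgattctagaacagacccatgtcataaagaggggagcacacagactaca
Which of the starts the reads came from was not analysed here.

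The largest fall among transcription factors was that of Pparg. Pparg, the nuclear receptor that drives lipid storage genes, was at 34.2, 39.2 and 30.0 CPM in M0 NS and 0.840, 0.990 and 0.917 CPM in M1 NS (log2 fold change -5.23, SE 0.25). Mxd4, which pairs with MAX and opposes MYC, was at 205, 201 and 181 CPM in M0 NS and 6.56, 6.77 and 6.65 CPM in M1 NS (log2 fold change -4.88, SE 0.16). Cebpa, a factor of myeloid differentiation, was at 277, 255 and 406 CPM in M0 NS and 16.2, 19.1 and 30.5 CPM in M1 NS (log2 fold change -3.83, SE 0.31). Dbp is an output gene of the circadian clock. It was at 27.5, 24.4 and 20.4 CPM in M0 NS and 1.29, 1.54 and 1.40 CPM in M1 NS (log2 fold change -4.10, SE 0.18). Of the HMG-box genes Sox4 and Tox2, the first was at 4.73, 4.84 and 6.31 CPM in M0 NS and 0.252, 0.317 and 0.373 CPM in M1 NS (log2 fold change -4.06, SE 0.27) and the second at 7.43, 6.17 and 6.69 CPM in M0 NS and 0.364, 0.990 and 0.143 CPM in M1 NS (log2 fold change -3.84, SE 0.44), or -4.71 without M1 NS replicate 2. Adjusted p-values of the 12 named factors ran from 9.13e-10 to 1.30e-05 (edgeR).

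Among families of factors, the IRF, STAT and NF-kappaB genes stood highest: 16 rose and 3 fell of 23 tested (median 1.23). With total-count scaling 13 rose and 6 fell. The NF-kappaB subunit gene Nfkb2 rose by 2.80. The 3 that fell were Irf4 (-2.57), which was not among the named genes and was added because the count is small, and 2 genes named for binding IRF2, Irf2bp2 (-0.71) and Irf2bpl (-0.70). The call of Irf2bpl was lost without M0 NS replicate 4 (adjusted p = 0.109, edgeR), without M1 NS replicate 1 (0.0810) and without M1 NS replicate 2 (0.0642). Basic leucine zipper factors had 18 rises and 13 falls among 47 tested, but 15 rose and 18 fell with total-count scaling. In the smaller list of AP-1 and EGR factors 5 rose and 4 fell of 15 tested (median 0.37), and 4 rose and 5 fell with total-count scaling. Junb rose (1.92), and Egr2 (-3.24) and Jun (-0.54) fell.

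Of basic helix-loop-helix factors 10 rose and 21 fell of 47 tested (median -0.40, or 8 and 29 with total-count scaling). Hif1a, the oxygen-regulated factor of glycolytic genes, rose by 3.11 and Mycl by 2.76, while Myc fell at -2.88. Of nuclear receptors and their coactivators 8 rose and 12 fell of 28 tested (median -0.21). Nr4a2, an early response gene, and the coactivator gene Ppargc1b rose at 3.58 and 2.47, and Nr1d1, the clock repressor REV-ERB alpha, fell at -1.74. Of circadian clock genes 6 rose and 9 fell of 19 tested (median -0.37, or 4 and 10 with total-count scaling). The repressor genes Nfil3 and Bhlhe40 rose (2.29 and 1.63, the latter 2.22 without M0 NS replicate 4), and Per3 fell (-2.76) together with Dbp. The sources used here do not give the hour of collection.

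Of ETS factors 7 rose and 4 fell of 19 tested (median -0.02), with Spic (2.86) and Ets2 (2.35) up and Etv1 (-2.10) and Fli1 (-1.87) down, and 4 rose and 10 fell with total-count scaling. KLF and SP factors had Klf8 (2.97) and Klf4 (2.43) among 4 rises and Klf2 (-1.33) and Klf11 (-1.27) among 7 falls of 17 tested, or 3 and 9 with total-count scaling. Forkhead factors had 3 rises, among them Foxp4 (1.84) and Foxk2, and 7 falls, among them the cell cycle factor gene Foxm1 (-2.60) and Foxo4 (-2.21), of 17 tested, or 1 and 10 with total-count scaling. Foxk2 was at 0.46, and its call was lost with total-count scaling (0.08, adjusted p = 0.571, edgeR). Homeobox, POU and LIM factors had 11 rises and 11 falls of 42 tested, or 6 and 18 with total-count scaling, with Hlx (-1.73) and Zhx3 (-1.55) lowest. Of the factors of TGF-beta, Wnt, Notch and Hippo signalling 3 rose and 7 fell of 25 tested (median -0.47, or 2 and 11 with total-count scaling). The Notch effector gene Rbpj rose at 1.42 and Skil at 1.5, and Vgll4 (-2.60) and Ski (-0.78) fell. BCL6, PRDM, ZBTB and Ikaros factors had 18 rises, led by Hivep1 (1.68) and Zbtb18 (1.62), and 13 falls, led by Zbtb38 (-1.49) and Zbtb42 (-1.08), of 63 tested, but 10 rose and 24 fell with total-count scaling. In the mixed list of RUNX, GATA, MEF2, NFAT, E2F and MYB factors 17 of 66 rose and 24 fell, or 14 and 35 with total-count scaling, with Runx3 (3.09) and the class II transactivator gene Ciita (2.62) as the largest rises.

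The 6 largest rises among surface receptors started from levels under 3 CPM in every M0 NS library. Ccr7, which guides cells to lymph nodes, was at 1.44, 1.36 and 0.785 CPM in M0 NS and 279, 321 and 89.8 CPM in M1 NS (log2 fold change 7.58, SE 0.74). Its M1 NS replicate 4 lay far below the other two M1 libraries, and without it the log2 fold change was 7.98. Ccr7 also counts as a dendritic cell marker, and the part of such cells was not tested. Il23r, the specific chain of the interleukin 23 receptor, was at 0.0466, 0.0534 and 0 CPM in M0 NS and 7.34, 5.86 and 4.13 CPM in M1 NS (log2 fold change 7.32, SE 0.68). Adora2a, an adenosine receptor gene, was at 1.82, 1.04 and 0.999 CPM in M0 NS and 168, 201 and 105 CPM in M1 NS (log2 fold change 6.93, SE 0.38), and the lysophosphatidic acid receptor gene Lpar1 at 0.559, 0.641 and 0.238 CPM in M0 NS and 38.0, 35.6 and 21.9 CPM in M1 NS (log2 fold change 6.05, SE 0.40). Ramp3, whose protein partners the calcitonin receptor-like receptor to bind adrenomedullin, was at 0.163, 0.0534 and 0.0952 CPM in M0 NS and 14.9, 19.2 and 17.9 CPM in M1 NS (log2 fold change 7.31, SE 0.42). Cd38, a surface enzyme that consumes NAD, was at 1.93, 1.76 and 2.33 CPM in M0 NS and 112, 84.8 and 165 CPM in M1 NS (log2 fold change 5.91, SE 0.52). No M1 NS library overlapped the M0 NS libraries in any of the 6, which the rule for naming genes required.

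The 6 receptor genes with the largest falls were under 3 CPM in every M1 NS library. Emr4, an adhesion G protein-coupled receptor gene of myeloid cells, was at 159.6, 174 and 86.5 CPM in M0 NS and 2.27, 1.15 and 1.40 CPM in M1 NS (log2 fold change -6.42, SE 0.47). Epor, the erythropoietin receptor gene, was at 5.89, 5.24 and 5.52 CPM in M0 NS and 0.0560, 0.198 and 0.0287 CPM in M1 NS (log2 fold change -5.97, SE 0.45), or -6.92 without M1 NS replicate 2. Gpr34, a receptor for lysophosphatidylserine, was at 30.3, 27.2 and 26.4 CPM in M0 NS and 0.672, 0.396 and 0.287 CPM in M1 NS (log2 fold change -5.92, SE 0.25), and the orphan receptor gene Gprc5c at 52.5, 43.5 and 38.9 CPM in M0 NS and 1.04, 0.792 and 0.459 CPM in M1 NS (log2 fold change -5.88, SE 0.27). Ccr3, the eotaxin receptor gene, was at 26.7, 29.5 and 26.6 CPM in M0 NS and 0.896, 0.436 and 0.573 CPM in M1 NS (log2 fold change -5.40, SE 0.48). The lectin gene Cd209f was at 2.23, 2.51 and 10.4 CPM in M0 NS and 0.0840, 0 and 0 CPM in M1 NS (log2 fold change -7.20, SE 2.20). Its M0 NS replicate 4 stood apart, and its call was the least secure: limma-voom gave an adjusted p of 0.114, and edgeR gave 0.0570 without M1 NS replicate 2 and 0.0758 without M1 NS replicate 4. Adjusted p-values of the 12 receptor genes ran from 5.76e-09 to 0.0158 (edgeR).

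Several receptor families had more falls than rises. Of LDL receptor family and scavenger receptors 9 rose and 16 fell of 28 tested (median -1.15, or 5 and 17 with total-count scaling). The sorting receptor gene Sort1 (-5.05) and the scavenger receptor gene Colec12 (-3.83) fell, and Marco, which binds bacteria and particles, rose (5.28), as did Lrp11 (1.49). Plexins, neuropilins and semaphorins, a guidance system first known from nerves, had 9 rises and 18 falls of 32 tested (median -1.45). Plxdc2 (-4.24) and Plxna2 (-4.04) were lowest, and Sema7a (5.49) and Sema4a (2.99) highest. Adhesion G protein-coupled receptors had the lowest median of all receptor lists (-1.95), with 3 rises and 11 falls of 21 tested. Besides Emr4, Cd97 fell (-2.85), and Gpr126 (2.01) and Emr1 (1.02) rose. Chemoattractant receptors showed 6 rises and 12 falls of 21 tested (median -0.80). Cxcr4, the receptor that holds myeloid cells in marrow, fell by 5.01 on the log2 scale, and Ccrl2, which binds chemerin, rose by 4.96.

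Among lipid, nucleotide and metabolite receptors 26 rose and 25 fell of 82 tested, and 23 rose and 32 fell with total-count scaling. The sphingosine phosphate receptor gene S1pr1 fell (-4.75, or -5.46 without M1 NS replicate 4). Orphan receptors had 18 rises, led by Gpr31b (4.36) and Gpr55 (4.11), and 22 falls of 55 tested. Cytokine and growth factor receptors had 14 rises and 22 falls of 56, or 10 and 29 with total-count scaling. Il12rb1, the chain shared by the receptors for interleukin 12 and interleukin 23, rose by 5.76, so that Il23r, Il12rb1 and their transducer Stat4 were all higher in M1 NS. The leukaemia inhibitory factor receptor gene Lifr fell at -4.26. Of receptor tyrosine kinases 5 rose and 9 fell of 33. Kdr, the VEGF receptor gene that also counts as an endothelial marker (4.39 ± 1.14 to 82.5 ± 45.8 CPM), and Met rose (4.23 and 3.02, the latter 2.41 without M1 NS replicate 4), and Csf1r, the receptor for the growth factor of macrophages, and Igf1r fell (-2.50 and -2.08). TNF receptor family genes had 9 rises, among them Tnfrsf8 (2.18) and Tnfrsf14 (1.99), and 7 falls, among them Tnfrsf13b (-2.01) and Tnfrsf21 (-1.32), of 21 tested, but 6 rose and 9 fell with total-count scaling.

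Lectins and immunoglobulin-like receptors fell more often than they rose. Of C-type lectins and galectin-binding lectins 11 rose and 23 fell of 52 tested (median -0.73), with Mgl2 at -5.14 among the falls and Ly75 (4.33) and Clec4e (4.18), which encodes the mycobacterial glycolipid receptor Mincle, as the largest rises. Of paired immunoglobulin-like and Siglec receptors 19 rose and 30 fell of 67 tested (median -0.52). Slamf1 (5.71) and Slamf8 (4.45) rose and Fcrls (-4.68) and Cd300lb (-3.95) fell. Tetraspanins, which organise membrane domains, had 4 rises, led by Tspan3 (4.40) and Tspan9 (3.08), and 10 falls, led by Tspan4 (-2.33) and Cd9 (-2.29, or -3.03 without M1 NS replicate 4), of 22 tested. Integrins and adhesion receptors had 15 rises and 15 falls of 65 tested, or 11 and 18 with total-count scaling. Itga5, the fibronectin receptor subunit, rose (3.01), and the laminin receptor subunit Itga6 and Itgb5 fell (-4.57 and -3.86).

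Among enzymes and their inhibitors the largest rise was that of Serpina3g. Serpina3g, a serine protease inhibitor, was at 3.38, 3.87 and 2.97 CPM in M0 NS and 1509.8, 1384 and 649 CPM in M1 NS (log2 fold change 8.44, SE 0.51), and its neighbour Serpina3f at 1.33, 1.44 and 0.976 CPM in M0 NS and 298, 277 and 159.6 CPM in M1 NS (log2 fold change 7.61, SE 0.32). The Serpina3 genes are near copies of each other on chromosome 12, and the sources used here do not say how shared reads were counted, so the values of single members are uncertain. Mmp25, a membrane-anchored matrix metalloproteinase, was at 0.885, 0.908 and 1.09 CPM in M0 NS and 266, 303 and 56.5 CPM in M1 NS (log2 fold change 7.75, SE 0.71), and at 8.21 without M1 NS replicate 4, its lowest M1 library. Dnase1l3, which digests extracellular chromatin, was at 1.70, 2.19 and 1.26 CPM in M0 NS and 374, 337 and 205 CPM in M1 NS (log2 fold change 7.48, SE 0.58). Wnk2 encodes a kinase of the family that controls ion cotransport. It was at 0.233, 0.160 and 0.286 CPM in M0 NS and 20.4, 25.2 and 32.7 CPM in M1 NS (log2 fold change 6.82, SE 0.32). Ppap2a, now named Plpp1, whose product removes the phosphate of lysophosphatidic acid, was at 1.12, 1.18 and 1.07 CPM in M0 NS and 94.1, 101 and 99.9 CPM in M1 NS (log2 fold change 6.45, SE 0.45), with the 3 libraries of each state close together.

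The largest falls included a pair of genes of prostaglandin metabolism, whereas the inducible cyclooxygenase gene Ptgs2 rose (log2 fold change 9.51). Ptgs1, the constitutive cyclooxygenase, was at 40.7, 41.4 and 38.4 CPM in M0 NS and 0.896, 0.831 and 0.258 CPM in M1 NS (log2 fold change -5.94, SE 0.31), and Hpgd, which inactivates prostaglandins, at 20.4, 16.2 and 34.2 CPM in M0 NS and 0.252, 0.0396 and 0.946 CPM in M1 NS (log2 fold change -5.74, SE 0.54), or -7.15 without M1 NS replicate 4. F13a1, the transglutaminase subunit of coagulation factor XIII, was at 94.8, 90.9 and 113 CPM in M0 NS and 1.32, 1.07 and 0.430 CPM in M1 NS (log2 fold change -6.73, SE 0.36). The ubiquitin ligase genes Rnf150 and Rnf144b fell from over 70 CPM to under 3 CPM in every library. Rnf150 was at 169.7, 156 and 141 CPM in M0 NS and 1.46, 1.66 and 2.47 CPM in M1 NS (log2 fold change -6.38, SE 0.30), and Rnf144b at 97.9, 102 and 73.2 CPM in M0 NS and 1.46, 1.15 and 0.946 CPM in M1 NS (log2 fold change -6.26, SE 0.23). Sulf2, which trims sulfate from heparan sulfate, was at 174, 151 and 148 CPM in M0 NS and 3.28, 3.48 and 3.70 CPM in M1 NS (log2 fold change -5.50, SE 0.13). Adjusted p-values of the 12 enzyme genes ran from 2.32e-10 to 3.32e-06 (edgeR).

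Genes of carbon metabolism moved in both directions. Of glycolysis, pentose phosphate and glycogen enzymes 30 rose and 21 fell of 65 tested (median 0.17), but 23 rose and 28 fell with total-count scaling. Hk3, a hexokinase, and Pfkfb3, which makes the activator of phosphofructokinase, rose (3.17 and 2.76), and Ldhb and Gnpda1 fell (-3.33 and -3.16). TCA cycle enzymes had 9 rises and 9 falls of 26 tested, or 5 and 11 with total-count scaling. The isocitrate dehydrogenase genes Idh1 and Idh2 fell (-3.38 and -3.06), and the malic enzyme gene Me1 and the succinate dehydrogenase subunit gene Sdhd rose (1.93 and 0.83). Fatty acid oxidation and peroxisome genes had the smallest share of rises of the 53 lists: 5 rose and 36 fell of 66 tested (median -0.51). Acaa2 and Pccb fell (-2.40 and -2.39), and 2 of the rises were Pex16 (1.21) and Hibadh (0.70). Of genes of fatty acid synthesis, desaturation and activation 9 rose and 23 fell of 43 tested (median -1.02, or 6 and 28 with total-count scaling). Acsl1, which activates fatty acids with coenzyme A, rose by 5.02 and Acot7 by 1.99, whereas Ptplad2 (-3.92) and the desaturase gene Fads1 (-2.67) fell.

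In amino acid metabolism, Ass1, which regenerates arginine from citrulline, rose by 3.21 (2.57 without M1 NS replicate 4) and Odc1, the first enzyme of polyamine synthesis, by 1.53, whereas the creatine enzyme gene Gamt (-3.44) and the polyamine oxidase gene Paox (-2.94) fell. In that list 6 rose and 8 fell of 21 tested (median -0.24, or 5 and 11 with total-count scaling). Glul, the glutamine synthetase gene, fell from 651 ± 33.2 to 21.2 ± 6.74 CPM (-4.94), and Psat1 of serine synthesis and Mthfd2 of mitochondrial folate metabolism rose (4.29 and 2.57). The methionine synthase gene Mtr fell (-1.86). Serine, one-carbon, methionine and glutamine genes had 14 rises and 14 falls of 47 tested, or 9 and 22 with total-count scaling and 12 and 19 with upper-quartile scaling. Of tetrahydrobiopterin, tryptophan and NAD genes 17 rose and 18 fell of 42 tested (median -0.14). The kynurenine pathway divided there, with Kynu, which splits kynurenines, at 4.89 and Kmo, which hydroxylates kynurenine, at -3.06. Nnt, the mitochondrial transhydrogenase gene, fell at -1.83. Nucleotide metabolism had 24 rises, led by Nudt17 (5.34) and the adenylate kinase gene Ak4 (5.26), and 41 falls, led by Enpp1 (-3.98) and the ribonucleotide reductase gene Rrm2 (-3.77), of 101 tested, or 18 and 53 with total-count scaling.

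Enzymes that build or trim glycans were mostly lower. Of glycosyltransferases and glycan sulfotransferases 14 rose and 62 fell of 112 tested (median -0.82). Man2a2, which trims mannose from N-glycans in the Golgi, fell by 5.48 on the log2 scale beside Sulf2, and St3gal5, which makes the ganglioside GM3, and the chondroitin enzyme gene Chpf rose (3.14 and 2.72). Of cytochrome P450, aldehyde dehydrogenase, glutathione and sulfotransferase genes 22 rose and 58 fell of 121 tested (median -0.62). The sterol hydroxylase gene Cyp27a1 (-4.96) and Sult1a1 (-4.92) fell, and the antioxidant genes Sod2 (3.92) and Prdx5 (3.0) rose. A second sterol hydroxylase moved the other way: Ch25h, which makes 25-hydroxycholesterol, rose by 6.38 (7.40 without M0 NS replicate 2). Ch25h was counted with phospholipid, glycerolipid and sphingolipid enzymes, where 40 rose and 64 fell of 152 tested (median -0.28, or 23 and 88 with total-count scaling). Lpin1, a phosphatidate phosphatase, and Abhd15 fell there (-5.29 and -5.18).

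Signalling enzymes changed in both directions, in a balance that depended on the scaling. Of protein kinases 83 rose and 86 fell of 263 tested, but 36 rose and 120 fell with total-count scaling. Among them were Pim1 (3.48) up beside Wnk2 and Matk (-4.13) and Nuak1 (-3.72) down. Protein phosphatases had 58 rises and 40 falls of 167 tested, but 31 rose and 72 fell with total-count scaling and 49 rose and 50 fell with upper-quartile scaling. Dusp2, which inactivates MAP kinases, and Inpp5b rose (3.63 and 3.35), and the cell cycle phosphatase gene Cdc25b and Ppp1r9a fell (-4.50 and -4.43). Cyclic nucleotide enzymes had 12 rises, led by the phosphodiesterase genes Pde10a (2.77) and Pde4b (2.66), and 11 falls, with the adenylate cyclase gene Adcy3 at -3.63, of 36 tested. With total-count scaling 8 rose and 14 fell, and with upper-quartile scaling 10 rose and 11 fell. Ubiquitin ligases and deubiquitinases had 126 rises and 93 falls of 373 tested, but 76 rose and 157 fell with total-count scaling. Trim30c (3.85) and Trim30b (3.37) were the largest rises there, and as near copies they may share reads.

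Chromatin and DNA modifying enzymes had 35 rises and 35 falls of 115 tested, or 20 and 59 with total-count scaling and 32 and 44 with upper-quartile scaling. Hat1, a histone acetyltransferase, and Naa25, an accessory chain of an N-terminal acetyltransferase, rose (2.76 and 2.75), and Padi2 and Padi4, which convert arginine to citrulline in histones and other proteins, fell (-5.06 and -3.45). Proteases and their inhibitors had 54 rises and 57 falls of 175. Prtn3, the proteinase of neutrophil granules, fell by 5.39 on the log2 scale. Prtn3 belongs to the 15 neutrophil and granulocyte markers that were all lower (summed 1441 to 2496 CPM in M0 NS and 131 to 212 CPM in M1 NS), and Padi4 is abundant in neutrophils too. The part of such cells in these falls was not tested. The carbonic anhydrase gene Car2 rose (4.15) in the mixed list of prolyl hydroxylases, transglutaminases, carbonic anhydrases and lipoxygenases, where 20 rose and 31 fell of 75 tested (median -0.57, or 15 and 39 with total-count scaling).

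Long noncoding RNAs were called in 38.9% of the 1018 tested, beside 55.5% of all genes, at much lower levels (median 0.536 CPM, beside 13.1 CPM for all genes). The shares were also taken within 4 equal bins of all tested genes by mean level. In the lowest bin 33.0% of 713 long noncoding RNAs were called, beside 36.4% of all genes in it. In the next bin it was 50.5% of 275 beside 60.6%, then 76.2% of 21 beside 58.9%, and in the highest bin 66.7% of 9 beside 66.1%. Among the called were 87 antisense genes higher and 66 lower and 55 intergenic RNAs higher and 73 lower. The largest rise was that of Ptgs2os, read from the opposite strand upstream of the cyclooxygenase gene Ptgs2 (chr1:150074873-150099963, minus strand), at 0.0233, 0 and 0 CPM in M0 NS and 10.9, 10.1 and 8.72 CPM in M1 NS (log2 fold change 9.75, SE 0.47). Ptgs2os2 (chr1:150159043-150164948, minus strand), on the far side of Ptgs2, was at 0.116, 0.107 and 0.0238 CPM in M0 NS and 11.7, 8.0 and 21.3 CPM in M1 NS (log2 fold change 7.33, SE 0.57). Gm26667, now named Mir155hg, the host transcript of miR-155 (chr16:84703167-84715245, plus strand), was at 0.116, 0.0801 and 0.143 CPM in M0 NS and 36.1, 26.6 and 40.8 CPM in M1 NS (log2 fold change 8.20, SE 0.60). Of these Ptgs2os was nearly unread in M0 NS, with a single count in 1 library. A count of 0 in an M0 NS library allows up to about 0.0738 CPM (3 counts, mean over the libraries, for counting error only). Fold changes against so few counts move with single libraries, and without M0 NS replicate 1 that of Ptgs2os was 11.51.

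In GENCODE M21, Ptgs2os and Ptgs2 start 68 bases apart and point away from each other. The RefSeq start of Ptgs2os lies inside its first GENCODE exon, and the stretch before it is shown up to the last base before Ptgs2, read on the minus strand towards Ptgs2os. That stretch is shorter than the 250 bases to which the motif shares above refer. The 250 bases before the RefSeq start of Ptgs2os2 follow. Capitals mark matches to the motifs given above, here 1 NF-kappaB match in the first window and 1 match to the interferon-stimulated response element in the second.
Ptgs2os, chr1:150099875-150100030, minus strand: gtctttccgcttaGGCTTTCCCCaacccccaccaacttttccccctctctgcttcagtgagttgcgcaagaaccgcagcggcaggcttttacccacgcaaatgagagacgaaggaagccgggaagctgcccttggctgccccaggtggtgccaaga
Ptgs2os2, chr1:150164949-150165198, minus strand: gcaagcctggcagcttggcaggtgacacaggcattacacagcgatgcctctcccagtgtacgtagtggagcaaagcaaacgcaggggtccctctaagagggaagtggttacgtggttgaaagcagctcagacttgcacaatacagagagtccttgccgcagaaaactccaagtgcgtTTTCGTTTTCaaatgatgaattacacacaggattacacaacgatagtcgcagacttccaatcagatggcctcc
Ptgs2 itself rose with both, at a log2 fold change of 9.51.

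Other rises lay across protein-coding genes that rose too. Gm26584 (chr8:40862395-40865647, minus strand) overlaps the start of Slc7a2 on the opposite strand over 3252 bp and was at 0, 0.0267 and 0 CPM in M0 NS and 3.61, 2.69 and 3.38 CPM in M1 NS (log2 fold change 8.13, SE 0.72), beside 7.78 for Slc7a2 (coordinates are those of GENCODE M21 on GRCm38). Gm16685 (chr3:7612705-7690001, plus strand) overlaps the interleukin 7 gene Il7 over 1056 bp on the opposite strand and was at 0.0233, 0.0267 and 0.0714 CPM in M0 NS and 5.69, 4.63 and 3.56 CPM in M1 NS (log2 fold change 6.71, SE 0.41), beside 3.49 for Il7. Gm16015 (chr5:43909215-43909885, minus strand) lies inside Cd38 on the opposite strand and was at 0.0233, 0 and 0 CPM in M0 NS and 0.868, 1.23 and 1.32 CPM in M1 NS (log2 fold change 6.63, SE 1.01), beside 5.91 for Cd38. The sources used here do not state whether counting used strand, so reads of a gene and of its antisense partner cannot be told apart in these 3 pairs. Without M0 NS replicate 2 the log2 fold change of Gm26584 was 9.92, without M0 NS replicate 4 that of Gm16685 was 7.35, and without M0 NS replicate 1 that of Gm16015 was 8.39. Mir155hg had Mrpl39 at 2331 bp as its nearest coding gene, which rose by 0.67.

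The 6 largest falls among long noncoding RNAs ended under 1 CPM in every M1 NS library. Gm29291 (chr1:154003396-154006221, minus strand) was at 3.07, 2.86 and 2.43 CPM in M0 NS and 0.0280, 0 and 0 CPM in M1 NS (log2 fold change -7.67, SE 0.53). Its nearest coding gene, Glul, lies 93673 bp away and fell as well. Gm15513 (chr5:34211810-34213802, minus strand), inside an intron of Zfyve28 on the same strand, was at 5.07, 4.94 and 5.59 CPM in M0 NS and 0.0840, 0 and 0.0287 CPM in M1 NS (log2 fold change -6.86, SE 0.44), beside -7.17 for Zfyve28, whose unspliced reads it could share. F730016J06Rik (chr2:28095477-28127731, plus strand) was at 5.42, 4.67 and 7.19 CPM in M0 NS and 0.0280, 0.317 and 0.0860 CPM in M1 NS (log2 fold change -5.44, SE 0.53). It lies 10592 bp from Fcnb, a gene of the neutrophil and granulocyte list, which fell at -4.52, and the part of such cells was not tested. Gm11748 (chr11:118476470-118479458, minus strand) overlaps Engase on the opposite strand and was at 1.40, 1.42 and 1.93 CPM in M0 NS and 0.0280, 0 and 0.0860 CPM in M1 NS (log2 fold change -5.15, SE 0.61), beside -5.07 for Engase. 5031425F14Rik (chr2:166447451-166459232, plus strand) was at 6.87, 6.76 and 5.38 CPM in M0 NS and 0.0840, 0.277 and 0.115 CPM in M1 NS (log2 fold change -5.38, SE 0.35). It was the named RNA whose neighbour moved the other way, as Prex1, 107110 bp away, rose by 0.91. G730013B05Rik (chr16:50526245-50559459, plus strand) was at 1.07, 0.588 and 1.57 CPM in M0 NS and 0.0280, 0 and 0.0287 CPM in M1 NS (log2 fold change -5.49, SE 0.73), and its neighbour Ccdc54 had too few counts to be tested. Single M1 NS libraries moved several of these values: without replicate 1, Gm29291 was at -9.71 and Gm15513 at -8.03, without replicate 2, F730016J06Rik at -6.59, and without replicate 4, Gm11748 at -6.33. Adjusted p-values of the 12 named RNAs ran from 1.27e-08 to 2.72e-04 (edgeR).

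The nearest coding gene was then taken for every long noncoding RNA of the class. Of 177 higher RNAs with a tested neighbour, 136 neighbours (76.8%) were higher too and 7 were lower, with a median neighbour log2 fold change of 1.44. Of 186 lower RNAs, 111 neighbours (59.7%) were lower and 29 were higher (median -0.76). Next to the 560 RNAs that were not called, 171 neighbours were higher and 128 lower (median 0.05), and 26.9% and 28.6% of all genes tested were higher and lower. Of all 193 higher RNAs, 131 overlapped the neighbouring gene, 123 of them on the opposite strand, and of all 203 lower RNAs, 105 and 97. Reads of such pairs cannot be told apart without the strand. Among RNAs that do not overlap their neighbour, 34 of 50 neighbours of higher RNAs were higher (68.0%) and 4 lower, and 48 of 92 neighbours of lower RNAs were lower (52.2%) and 21 higher. Beside RNAs not called and not overlapping, 53 of 159 neighbours were higher and 31 lower.

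**Figure D4:**
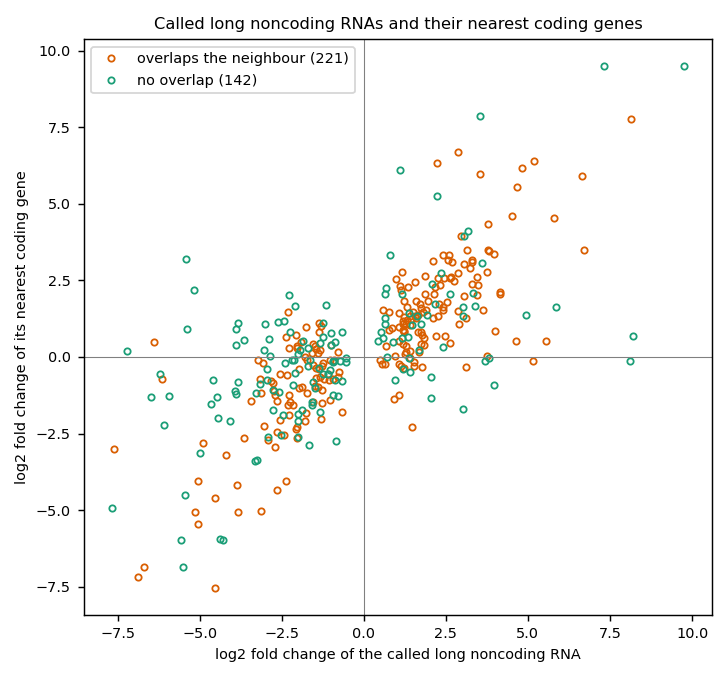
Log2 fold change of each called long noncoding RNA (horizontal axis) against that of its nearest protein-coding gene (vertical axis), M1 NS against M0 NS, for 221 RNAs that overlap the neighbour and 142 that do not. Points gather in the upper right and lower left, with Ptgs2os and Ptgs2os2 both set against Ptgs2 at 9.51.

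A small set of genes had hardly any reads in 1 of the states. With at most 3 counts in every M0 NS library and at least 1 CPM in every M1 NS library, 19 genes were on in M1 NS alone, 16 of them coding and 3 long noncoding. Thbs4, an extracellular matrix thrombospondin, had 0 counts in all 3 M0 NS libraries and 7.51, 10.3 and 3.58 CPM in M1 NS, which is at least 96.6-fold higher with 3 counts allowed per M0 NS library. The granulocyte growth factor gene Csf3 had 1, 0 and 2 counts in M0 NS and 5.74, 6.89 and 2.35 CPM in M1 NS. The calmodulin-binding protein gene Pcp4 had 2, 0 and 0 counts and 6.84, 5.23 and 3.35 CPM, and the glutathione transferase gene Gstt4 had 2, 1 and 1 counts and 5.49, 4.87 and 1.06 CPM. M1 NS replicate 4 was the lowest for each of these 4. With Ptgs2os and Il23r these were the 6 with the highest mean level among genes with an established symbol, and Gm16685, described above, lay between Csf3 and Gstt4.

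The reverse pattern was found for 44 genes, 36 of them coding and 5 long noncoding. Armc2 was at 5.52, 5.80 and 6.04 CPM in M0 NS and had 3, 2 and 1 counts in M1 NS. Elane, the neutrophil elastase gene, was at 3.17, 3.21 and 7.09 CPM and had 2, 0 and 0 counts. It belongs to the neutrophil and granulocyte list that was lower throughout, and the part of such cells was not tested. The phosphodiesterase gene Pde1c was at 3.19, 3.53 and 5.14 CPM in M0 NS, the acyl-CoA thioesterase gene Acot1 at 2.98, 3.58 and 4.88 CPM and Shisa9 at 3.40, 2.94 and 2.47 CPM, with 0 to 3 counts in each M1 NS library. With Cd209f these were the 6 with the highest mean level among genes with an established symbol, and Gm15513, described above, lay between Armc2 and Cd209f.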

How the data were processed

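RNA was sequenced from 11 libraries of bone marrow derived macrophages. The submitters' processing notes name the tools Trimmomatic 0.36, STAR 2.5.2b, Subread 1.5.2 with featureCounts, and the build GRCm38. The authors deposited a table of raw counts per gene. The sources used here do not give strand or multimapping settings. A row with no gene name, at most 0.00030% of any library, was dropped. The authors' table of normalized values was not used.

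Counts were tested with edgeR 4.0.16 in R 4.3.3: filterByExpr (minimum count 10, minimum total 15), TMM factors and a robust quasi-likelihood fit of all 11 libraries with a coefficient for each of 4 groups, so that the groups share 1 estimate of the spread. A call needed an adjusted p (Benjamini-Hochberg over 15024 genes) under 0.05. SE refers to the log2 fold change and was not estimated separately. It is the absolute log2 fold change divided by the square root of the test's F statistic. The procedure was run on simulated data in which few genes changed, as many up as down. Such data cannot test the scaling in a response as wide as this one. At these totals a gene with a few counts has wide counting error, and the spread between 3 libraries sets the precision of the others. Alternatives were other scaling factors, DESeq2 1.42.0, limma-voom (limma 3.58.1), other filters, the 6 libraries alone, a stricter fold, the replicate number as a block and each library left out.

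The members and the 53 lists, made from gene symbol patterns, were chosen with earlier results of these data known. Named genes were called, did not overlap between states and reached a mean of 5 CPM (1 CPM for long noncoding RNAs) in the higher state, with 77 known markers passed over. Per class the 6 largest rises and falls are given with every library, and per list the 2 largest with their fold change. On-off genes with the highest level and an established symbol, and the neighbours of named RNAs, were added. Lyz2, Cd28, Irf4, and Emr1, Ccr7 and Kdr as markers were chosen after their values were seen. Long noncoding RNAs are those of GENCODE M21, without 55 that RefSeq calls protein-coding. Of 42375 symbols, 38895 matched GENCODE M21 directly and 937 by an older symbol. The RefSeq promoter table, used without chromosome 18, held 10817 of the 15024 tested genes (72.0%). That is under 80%, so a comparison of motif shares between called and other genes is void and not given. For M0 NS and M1 NS libraries with the same replicate number, correlations of deviations from the state means were 0.090, -0.075 and -0.083. For unlike numbers they ran from -0.14 to 0.17. With 3 libraries per state such values cannot show whether libraries of the same number were paired.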

Additional observations from a re-analysis of the deposited data

How the results depend on the processing

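Of 227 named genes none changed direction under any of 17 alternatives, and 7 lost a call under at least 1 of them. DESeq2 gave no adjusted p for 1 named gene, so only 226 were compared there. Jun, Irf2bp2, Irf2bpl, Foxk2, Ski and Hibadh lost it when a fold of more than 1.5 was asked for, and Irf2bpl, Foxk2 and Cd209f under the settings named with them. With libraries scaled by their total count alone, 2348 genes were called higher and 6447 lower (26.7% of calls higher, beside 48.5%), with 69 transporters and 366 enzymes higher and 305 long noncoding RNAs lower. When a fold of more than 1.5 was asked for, 2183 genes were higher and 2788 lower, with 66 transporters higher, 80 transcription factors lower, and 341 enzymes higher and 469 lower. A minimum of 1 CPM left 117 lower long noncoding RNAs. Leaving out each library in turn gave 3478 to 4156 genes higher and 3753 to 4500 lower. With the replicate number as a block over 9 libraries, 3914 genes were higher and 4256 lower, and no named call changed. Upper-quartile factors gave 3419 higher and 4938 lower, with a median log2 fold change of -0.16. The class counts not given here stayed within 1.5 times the reported ones under all alternatives run. Total-count scaling moved the log2 fold changes of 8 named genes by more than 1.5 times: Jun to -0.92, Irf2bp2 to -1.08, Irf2bpl to -1.08, Foxk2 to 0.08, Ski to -1.17, Emr1 to 0.64, Sdhd to 0.44 and Hibadh to 0.32. Depth limits the genes with 0 to 3 counts in a state, whose fold changes moved with single libraries.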
